A study of Mus musculus with 6 samples.

Results

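The cytosolic ribosomal protein genes are the mouse genes that encode the protein components of the small and large subunits of the cytosolic ribosome. Members were the protein-coding genes of the RefSeq gene table of GRCm38.p6 whose symbol starts with Rpl or Rps followed by a digit, together with Rplp0, Rplp1, Rplp2 and Rpsa and without the kinase genes that start with Rps6k. This gave 91 of 21887 protein-coding genes. Their open chromatin was read in 124 of the 74686 deposited regions, those within 2 kb of the start or end of a member, and 84 of the 91 genes had at least 1 such region. By the symbol rule some members are paralogs, retrocopies or, in the case of Rps19bp1, a partner protein that is not itself part of the ribosome.

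Chromatin accessibility was measured by ATAC-seq, which uses a transposase to cut and tag DNA that is not packed into nucleosomes. The cells were TCR-transgenic OT1 CD8 T cells, which recognise an ovalbumin peptide, sorted on CD8 and CD45.1 out of tumors of B16-OVA-GP61, a line of mouse melanoma cells with ovalbumin and GP61 as model antigens. In 3 libraries the tumors also had TCR-transgenic SMARTA CD4 T cells, which recognise GP61, and in the other 3 libraries no SMARTA cells were present. The question, per the study's title, is the part that CD4 T cells play in the reprogramming of tumor-specific CD8 T cells. All 6 libraries share the OT1 receptor, the tumor line and the sort. The labels do not give the age, sex or strain of the hosts, nor whether each replicate was its own animal, so the p-values rest on a spread between libraries that may be technical.

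Ribosomal protein genes are transcribed by RNA polymerase II from short, GC-rich promoters that are active in all dividing cells. Their mRNAs start with a C followed by a run of pyrimidines, the terminal oligopyrimidine (TOP) motif, through which mTORC1 and the protein LARP1 control their translation. T cells that are activated raise ribosome production as they grow and divide.

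The libraries with SMARTA cells held 20175065, 16595779 and 27182809 counts in the 74686 regions, and those without held 19149455, 26218921 and 24129749. Over all regions 4.68% opened and 10.4% closed with SMARTA cells, by edgeR's quasi-likelihood test at a Benjamini-Hochberg adjusted p of 0.05. A region past that threshold is called opened for a positive log2 fold (with minus without SMARTA cells) and closed for a negative one. Of 10 CD8 T cell marker genes 9 were found in the gene table, and all 9 had a region within 2 kb of a boundary, for example Cd8b1 at 65.0 CPM and Cd3d at 104.3 CPM (CPM, scaled read counts relative to library size; mean of 6 libraries). Of 10 melanoma and melanocyte genes 5 had such a region, and Tyr, Tyrp1, Dct, Sox10 and Slc45a2 had none. The 5 were Pmel (135.2 CPM in its most accessible region), Mitf (33.1), Gpnmb (13.1), Mc1r (9.02) and Mlana (6.30). Of the lists for other cells, regions were found for 3 of 4 CD4 T cell genes (not Foxp3), 4 of 6 B cell genes (not Ms4a1 or Pax5), 6 of 8 myeloid genes (not Adgre1 or Lyz2) and 4 of 7 endothelial and fibroblast genes. The most accessible of these were at Zbtb7b (62.0 CPM; Cd4 had 18.7), Cd79a (36.9), Cd68 (72.7; Itgam had 37.7) and Col1a1 (21.2). The 8 regions of the melanoma list summed to 221.7 to 230.2 CPM with SMARTA cells, against 186.7 to 205.8 CPM without. Of the 8, 0 opened and 0 closed. The most accessible of them was the Pmel region at 135.2 CPM, which is also within 2 kb of Cdk2 and Rab5b. The CD8 T cell list summed to 914.3 to 1000 CPM with SMARTA cells, against 878.8 to 951.7 CPM without. Those sums overlapped between the groups, and so did the sums of the CD4 T cell, B cell, myeloid, and endothelial and fibroblast lists. In bulk libraries, fewer cells of a type and less open chromatin per cell cannot be told apart. The part of other cells in the results that follow was not tested.

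The 84 ribosomal protein genes with a region were among the most accessible loci of the table. Of these, 50 genes had 1 region, 27 had 2 and 7 had 3, and 1 region was counted for a pair of members. The main region of a gene is here its region with the highest mean log2 CPM over the 6 libraries. Of the 124 regions 45 are also within 2 kb of a protein-coding gene outside the family, among them 26 main regions. Values of such regions cannot be assigned to 1 gene by position. The main regions had a median percentile of 94.2 among all 74686 regions, 80 of the 84 lay in the top 20%, and 82 overlapped a peak in all 6 of the authors' peak lists. The other 40 regions of these genes had a median percentile of 66.4. Over all 124 regions the median percentile was 91.0, against 78.3 for all regions within 2 kb of a protein-coding gene boundary. Such levels were not particular to the family. The 8 lists of related genes counted below had median percentiles from 84.2 (RNA polymerase I genes) to 93.5 (elongation factors and other TOP mRNA genes). Nearly all regions, including all of the members' apart from a longer one at Rpl38, are 401 bases long, so levels between regions are compared at equal length.

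The main regions were about equally accessible in every library. Their median level was 57.1, 61.0 and 57.4 CPM in the libraries with SMARTA cells, against 51.2, 56.1 and 56.7 CPM in those without. Each library with SMARTA cells had a higher median than each library without, and replicate 2 with SMARTA cells was the highest. The 124 member regions took 0.526%, 0.603% and 0.551% of all counts with SMARTA cells, against 0.519%, 0.517% and 0.524% without. Replicate 2 with SMARTA cells again stood apart from the others. The median coefficient of variation of a main region was 7.25% among the 3 libraries with SMARTA cells, against 4.28% among the 3 without. In the table the counts behind a main region ranged from 32 to 3314 per library.

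**Figure D1:**
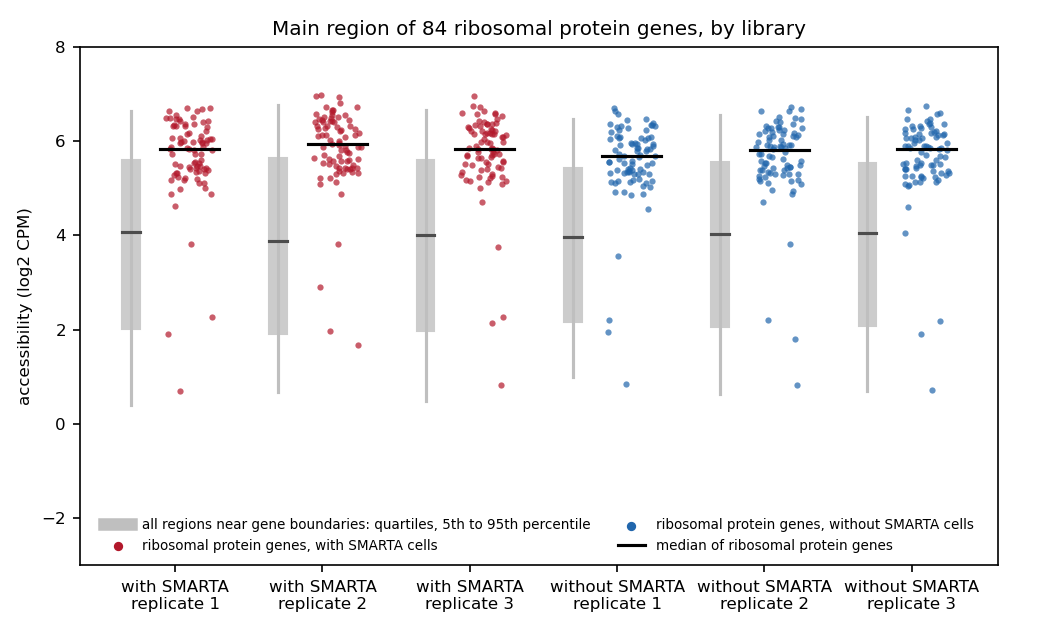
Accessibility (log2 CPM) of the main region of 84 ribosomal protein genes in each of the 6 libraries, 1 point a gene, with the median as a black line. The grey bars show the quartiles, and the grey lines the 5th to 95th percentile, of all regions within 2 kb of a protein-coding gene boundary. The medians of 51.2 to 61.0 CPM sit above the upper quartile of the grey bars in every library.

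Rps19, a small subunit protein whose human gene is mutated in Diamond-Blackfan anemia, had the most accessible region of the family, at the 99.2 percentile of all regions. It read 102.5, 125.5 and 124.0 CPM with SMARTA cells, against 103.6, 105.7 and 107.4 CPM without (log2 fold 0.15 ± 0.08 SE, edgeR adjusted p = 0.224). The groups overlapped, with replicate 1 with SMARTA cells below all 3 libraries without, and leaving that replicate out gave an adjusted p of 0.0217. Next in level were Rpl13a, Rps29, Rpl41 and Rpl36al, with means over 6 libraries of 105.9, 102.3, 98.7 and 96.4 CPM. The Rpl41 region is also within 2 kb of Zc3h10 and the Rpl36al region within 2 kb of Mgat2, so these levels cannot be assigned to 1 gene. This Rpl41 region lies 116 bases outside the gene and 1174 bases from its listed start. A secondary Rpl41 region, over that start, averaged 69.1 CPM (log2 fold 0.19 ± 0.07 SE, edgeR adjusted p = 0.0788), and its groups did not overlap. With SMARTA cells each of the 5 most accessible main regions overlapped its neighbour in the order. Without them Rps19 (103.6 to 107.4 CPM) lay above Rpl13a (99.2 to 101.2 CPM) and Rpl41 (94.9 to 99.4 CPM) above Rpl36al (88.4 to 91.2 CPM), while Rps29 overlapped both its neighbours.

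The least accessible main regions belonged to retrocopies or to genes whose promoter region is not in the set. Rpl37rt and Rpl34-ps1, named as a retrocopy and a pseudogene-derived symbol, had means of 1.97 and 4.17 CPM, at the 22.7 and 50.6 percentiles. For Rps25, a small subunit protein, the set holds a region 1902 bases outside the gene with 4.83 CPM. The authors' peak lists nevertheless hold a peak at its listed start in all 6 libraries, with a fold enrichment over local background of 19.4, 20.0 and 20.5 with SMARTA cells, against 18.0, 19.7 and 18.7 without. For Rpl19, of the large subunit, the main region within 2 kb read 14.0 CPM, while a region at its listed start lay 3.35 kb from the nearer gene boundary and read 41.5, 43.3 and 44.7 CPM with SMARTA cells, against 37.1, 35.5 and 38.4 CPM without (log2 fold 0.22 ± 0.09 SE, edgeR adjusted p = 0.12). In that region the groups did not overlap. Rps4x, the X-linked small subunit gene, was the next lowest at 25.7 CPM.

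A total of 7 members had no region. Of these, Rps27rt, Rps23rg1, Rpl10l and Rpl31-ps12 also had no peak within 2 kb in any of the 6 lists, and Rpl32l and Rpl39l had a peak in 1 list each. Rpl10l and Rpl39l are paralogs of Rpl10 and Rpl39 known for expression in male germ cells. Rps19bp1, which binds the Rps19 protein, differed from these. Its authors' peaks had a fold enrichment of 17.6, 16.2 and 19.2 with SMARTA cells, against 14.6, 18.6 and 18.5 without, yet no row of the count table lies there.

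Most peaks that covered a listed start had their summit close to it. RefSeq lists a start for 70 of the 91 members, and 56 of these starts lay inside a region. For 63 of the 70 members a peak covered a listed start, in all 6 lists for 62. The median distance from the nearest listed start to the summit of that peak was -24.5 bases, which is upstream, with quartiles of -59.5 and 14 bases. For 51 of the 63 the summit was within 100 bases of the start, and for Rps25, Rps26 and Rpl4 the distance was -340, -327 and -479.5 bases (median over the lists).

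Promoter sequences of the family were searched for short motifs, which the symbol rule did not use. RefSeq promoter entries (GRCm38.p6) run from 250 bases before to 50 bases after a start, and 62 entries of 56 members had their start in an open region, against 8950 such entries of all genes. The core of ETS factor sites, CGGAAG on either strand, was in 62.9% of the members' entries, against 35.4% of all open entries. A run of 8 or more C or T on the sense strand within 30 bases of the start was in 51.6%, against 19.4%. A C followed by 4 more C or T exactly from the listed start on, as in a TOP motif, was in 21.0%, against 2.03%. The YY1 core AAGATGG was in 16.1% against 7.49%, and the TATA box TATAAA in 8.06% against 5.84%. By contrast the SP/KLF box GGGCGG was in 67.7% against 69.8% and the E-box CACGTG, which MYC can bind, in 9.68% against 11.0%. The median GC content was 59.0% against 62.0%. These motifs were searched on both strands apart from the pyrimidine features, a match is a description of the letters, and no test was run.

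The promoters of Rps18 and Rps6 are printed to make these features visible. Rps6 encodes the small subunit protein that S6 kinases phosphorylate downstream of mTORC1, and Rps18 is a protein of the head of the small subunit. Each sequence runs from 110 bases before the listed start through the first 40 bases of the transcript, 5′ to 3′ on the sense strand. Capitals mark ETS cores (CGGAAG or its reverse complement) and runs of 8 or more C or T. Each has 3 ETS cores, and a pyrimidine run that spans the listed start. The Rps18 sequence is chr17:33955626-33955775, minus strand, and the Rps6 sequence is chr4:86857328-86857477, minus strand. The Rps19 sequence (chr7:24884482-24884631, plus strand), from the most accessible member, has 0 ETS cores and a single run, far from the listed start.
Rps18: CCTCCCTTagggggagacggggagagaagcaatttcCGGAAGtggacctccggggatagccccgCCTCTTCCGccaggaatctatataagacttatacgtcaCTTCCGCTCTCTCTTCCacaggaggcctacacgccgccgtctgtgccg
Rps6: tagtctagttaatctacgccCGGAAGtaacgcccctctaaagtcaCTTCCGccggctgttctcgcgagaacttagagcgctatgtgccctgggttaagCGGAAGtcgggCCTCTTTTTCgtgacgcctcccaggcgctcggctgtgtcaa
Rps19: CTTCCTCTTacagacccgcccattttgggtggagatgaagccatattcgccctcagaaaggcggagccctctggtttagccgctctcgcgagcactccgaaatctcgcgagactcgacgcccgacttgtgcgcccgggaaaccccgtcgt

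With SMARTA cells, 7 of the 124 ribosomal protein gene regions opened and 0 closed, and the typical change was small. They included regions at Rpl29, Rpl27, Rps13, Rps14, Rpl22 and Rpl36al. The opened share of 5.65% was near the background, since 5.08% of the 18376 regions within 2 kb of any protein-coding gene boundary opened and 4.06% closed. Among the 8824 such boundary regions in the top 20% of accessibility, 8.53% opened and 1.07% closed. At an unadjusted p under 0.05 in edgeR, 23 member regions had a higher and 3 a lower level with SMARTA cells. DESeq2 called 2 opened and 0 closed.

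The 7 opened regions depended on the scaling and on single libraries. The count was 2 with total-count scaling and 1 with loess scaling by abundance. It was 3 without replicate 2 with SMARTA cells, and, leaving out replicate 1, 2 or 3 of the libraries without SMARTA cells, it was 2, 2 or 1. The opened share of all boundary regions also fell, from 5.08% to 2.7% with total-count and 2.26% with loess scaling. Member shares were then 1.61% and 0.806%. Without replicate 2 with SMARTA cells the shares were 4.23% of boundary and 2.42% of member regions. Leaving out replicate 1, 2 or 3 without SMARTA cells gave 1.68%, 1.68% or 1.1%, against 1.61%, 1.61% or 0.806%.

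Over the 124 regions the median log2 fold was 0.13 (quartiles 0.04 and 0.17, range -0.79 to 1.13), and 97 of them lay above 0. The median was 0.01 over all regions, 0.07 over boundary regions and 0.13 over boundary regions in the top 20%. In 100 of the 124 the change was under 0.25 on the log2 scale in size. The 88 member regions that are themselves in the top 20% had a median of 0.14 with 93.2% above 0, against 0.13 and 81.6% for all boundary regions in that range, and 6 of them opened (6.82%, against 8.53%). That difference was not tested. Under loess scaling, which removes trends with abundance, the median was 0.02 over the 124, with 75 above 0, and 0.02 over the 88, with 57 above 0. The same scaling turned the split of top-20% boundary regions to 152 opened and 210 closed, against 753 opened and 94 closed with TMM scaling, and that of all boundary regions to 416 and 851, against 933 and 746.

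**Figure D2:**
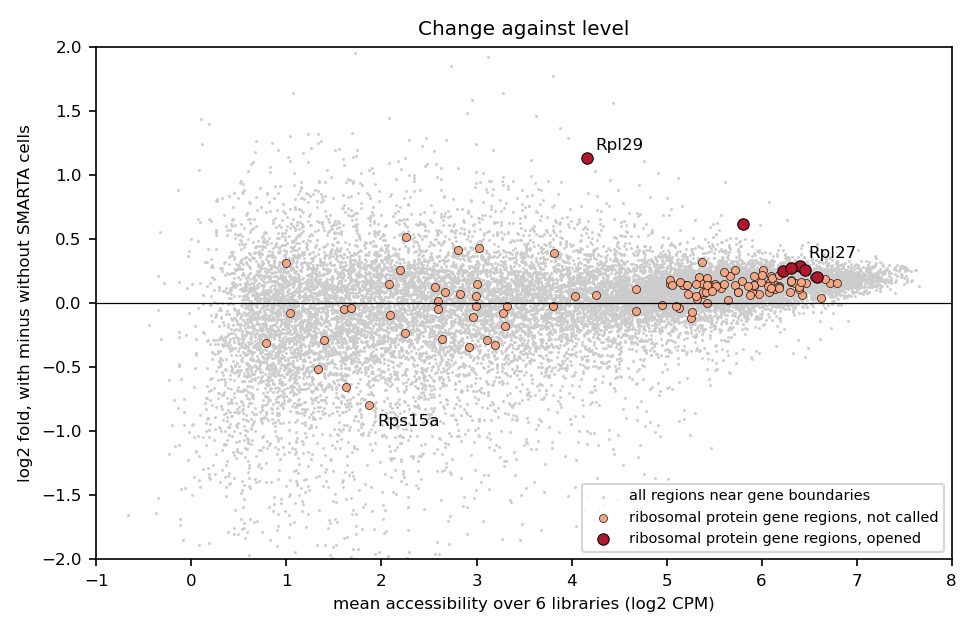
Log2 fold (with minus without SMARTA cells, TMM scaling) against mean accessibility (log2 CPM over 6 libraries), 1 point a region, with the vertical axis limited to values from -2 to 2. Grey points are the regions within 2 kb of any protein-coding gene boundary, orange points the ribosomal protein gene regions that were not called and red points the 7 that opened. Most ribosomal protein gene regions lie at the right, within the upward-shifted grey band whose median is 0.13, and that shift is 0.01 under loess scaling.

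In 37 of the 124 ribosomal protein gene regions (29.8%) all 3 libraries with SMARTA cells lay above all 3 without, and in 4 (3.23%) they lay below. Over all regions the shares were 15.7% above and 18.5% below. Over boundary regions in the top 20% they were 36.5% above and 3.68% below, against which the 88 member regions of that range had 37.5% above and 0 below. The 4 regions that were lower with SMARTA cells in every library were secondary, weakly accessible ones at Rpl11, Rpl22, Rpl7l1 and Rps15a.

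The upward values were mostly those of main regions, and a difference from the secondary ones was not tested. Of the 84 main regions 5 opened, 0 closed and 79 had a log2 fold above 0 (median 0.14), and in 32 the groups did not overlap, all of them upward. The count above 0 was 54 of 84 and the median 0.02 under loess scaling. Of the 40 other regions 2 opened and 0 closed, with a median of -0.02 and 18 above 0. The 67 regions that overlap a gene boundary had a median of 0.14 with 4 opened, and the 57 that lie 1 to 2000 bases from one had a median of 0.05 with 3 opened. Opened shares were 5.0% of the 40, 5.97% of the 67 and 5.26% of the 57, against 5.08% of all boundary regions.

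The counts were similar in both subunits. Of the 31 main regions of small subunit genes 2 opened, 0 closed and 31 were above 0 (median 0.14), and of the 46 of large subunit genes 2 opened, 0 closed and 42 were above 0 (median 0.14). A difference between the subunits was not tested. The paralogs had 5 main regions, of which 1 opened, the one at Rpl36al. The 2 regions of retrocopies or related symbols were not called.

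**Figure D3:**
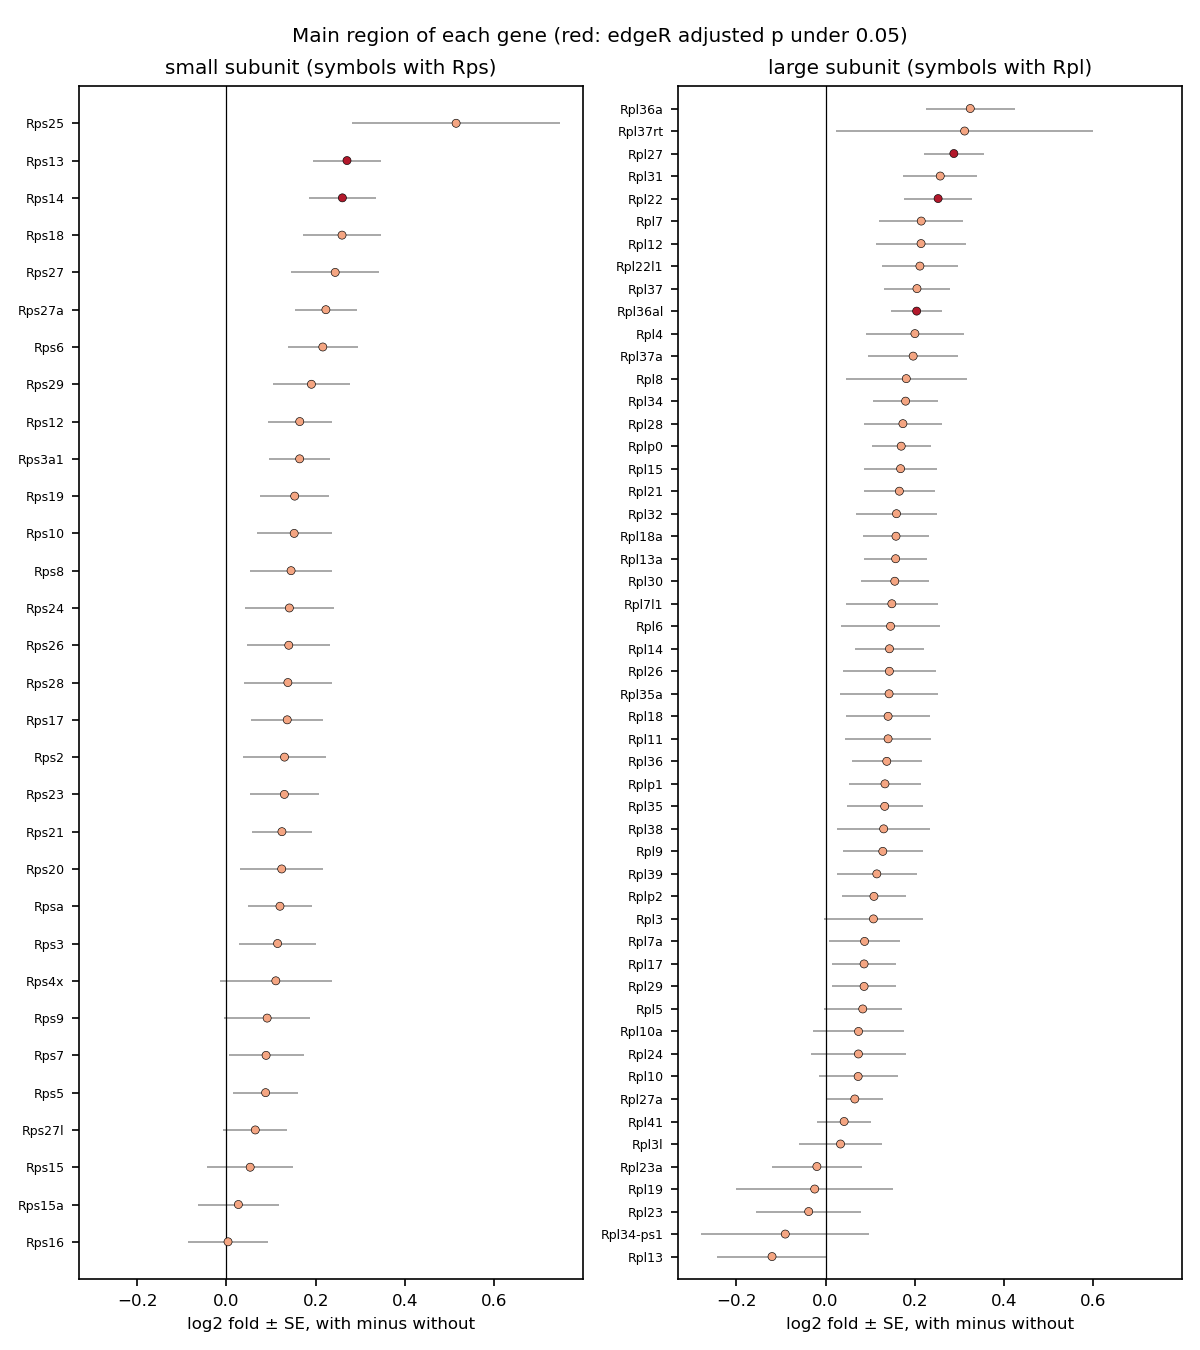
Log2 fold ± SE (with minus without SMARTA cells, edgeR with TMM scaling, 3 libraries each) of main regions, ordered by value, with regions that opened in red. Genes with Rps symbols (small subunit) are on the left and those with Rpl symbols (large subunit) on the right, including paralogs and retrocopies or related symbols. The values run from -0.12 at Rpl13 to 0.51 at Rps25, and over all 84 main regions 79 are above 0 with this scaling, against 54 with loess scaling.

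The largest change of the family was at Rpl29, which encodes a small basic protein of the large subunit. A region inside the gene, 434 bases from its high-coordinate end (chr9:106430734-106431134, GRCm38), read 24.7, 28.0 and 26.4 CPM with SMARTA cells, against 10.3, 12.2 and 13.7 CPM without. The groups did not overlap, and the log2 fold was 1.13 ± 0.16 SE (edgeR adjusted p = 0.00141). The region is also 1847 bases from Acy1, which encodes an aminoacylase, so the gene it belongs to cannot be told apart by position. The authors' peaks there had a fold enrichment of 5.98, 6.29 and 6.03 with SMARTA cells, against 2.71, 3.12 and 3.91 without. The main Rpl29 region (chr9:106429257-106429657) is also inside the gene and had a log2 fold of 0.09 ± 0.07 SE (edgeR adjusted p = 0.477), with 62.1, 58.9 and 63.1 CPM with SMARTA cells, against 55.6, 60.2 and 57.7 CPM without. The inner region opened under all 13 alternatives tried, with a log2 fold between 1.03 and 1.23 and a highest adjusted p of 0.0101. Of these, the fit without a filter repeats the TMM fit, since the filter removed 0 regions.

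A further 5 opened regions are highly accessible and rose by 0.20 to 0.29 on the log2 scale. Those at Rpl27, Rps13, Rps14 and Rpl36al overlap a gene boundary, and that at Rpl22 lies inside the gene over its listed start. Rpl27, a large subunit gene, had the smallest adjusted p of these. Its region (chr11:101442090-101442490), which spans the listed start, read 86.8, 98.4 and 94.8 CPM with SMARTA cells, against 75.8, 75.7 and 77.8 CPM without. The libraries without SMARTA cells lay within a narrow range below all 3 with them, and the log2 fold was 0.29 ± 0.07 SE (edgeR adjusted p = 0.0171). The call was lost on leaving out replicate 2 or 3 of the libraries without SMARTA cells (adjusted p = 0.0659 and 0.063), with loess scaling (0.136, log2 fold 0.14) and with DESeq2 (0.0522).

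Rps13 and Rps14 were the small subunit genes whose main region opened. Rps14 is known from its loss of 1 copy in a human myelodysplastic syndrome, and Rps13 is a protein of the small subunit body. The Rps13 region (chr7:116333981-116334381), which also overlaps the long non-coding RNA gene Gm10589, read 89.2, 90.7 and 82.4 CPM with SMARTA cells, against 66.7, 78.2 and 72.4 CPM without (log2 fold 0.27 ± 0.08 SE, edgeR adjusted p = 0.039). The Rps14 region (chr18:60774329-60774729) read 90.9, 100.9 and 97.0 CPM with SMARTA cells, against 73.4, 85.5 and 82.3 CPM without (log2 fold 0.26 ± 0.07 SE, edgeR adjusted p = 0.0411). In both genes replicate 1 was the lowest of the group without SMARTA cells, and the groups did not overlap. Without that replicate the calls were lost, with log2 folds of 0.21 at Rps13 (adjusted p = 0.111) and 0.20 at Rps14 (0.112). They were also lost without replicate 3 of that group (0.126 and 0.106) and without replicate 2 with SMARTA cells (0.0707 and 0.0801). Rps13 lost its call without replicate 1 with SMARTA cells (0.0824), and Rps14 without replicate 3 with them (0.0756) and replicate 2 without (0.0558). Total-count scaling (0.0533 and 0.0611), loess scaling (0.179 and 0.212) and DESeq2 (0.125 and 0.142) also ended both.

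Rpl22 and Rpl36al completed the called genes. Rpl22 encodes a large subunit protein that most mouse cells can do without but that developing alpha-beta T cells need, and Rpl36al is a paralog of the X-linked Rpl36a. The Rpl22 region (chr4:152325569-152325969) also overlaps the long non-coding RNA gene 9430083M05Rik and read 82.3, 84.3 and 78.6 CPM with SMARTA cells, against 62.5, 73.4 and 69.8 CPM without (log2 fold 0.25 ± 0.08 SE, edgeR adjusted p = 0.049). The Rpl36al region (chr12:69183919-69184319) spans the listed start of Rpl36al and overlaps a boundary of Mgat2, a glycosyltransferase gene. It read 104.0, 105.9 and 99.7 CPM with SMARTA cells, against 88.4, 91.2 and 89.0 CPM without (log2 fold 0.20 ± 0.06 SE, edgeR adjusted p = 0.0374). The groups were apart in both. The Rpl22 call was lost when any 1 of the 6 libraries was left out (highest adjusted p = 0.129), and with RLE scaling (0.0527), total-count scaling (0.0663), loess scaling (0.215, log2 fold 0.12) and DESeq2 (0.155). The Rpl36al call was lost when any 1 library apart from replicate 3 with SMARTA cells was left out (highest adjusted p = 0.143), with total-count scaling (0.0914), with DESeq2 (0.168) and with loess scaling (0.615, log2 fold 0.04). Rpl36a itself was just outside the threshold, with 44.4, 51.2 and 43.9 CPM with SMARTA cells, against 34.4, 39.3 and 37.6 CPM without (log2 fold 0.32 ± 0.10 SE, edgeR adjusted p = 0.0519). Next outside were Rps27a, which encodes a ubiquitin fusion protein (log2 fold 0.22, edgeR adjusted p = 0.055), and Rpl31 (0.26, 0.0614). The Rpl36a region is also within 2 kb of Btk and the Rps27a region within 2 kb of Clhc1.

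**Figure D4:**
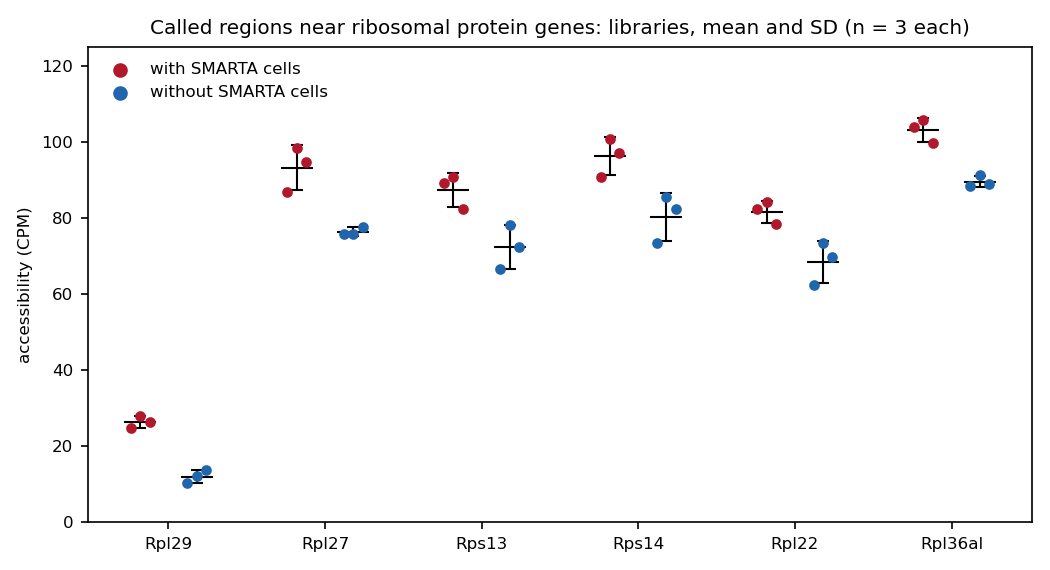
Accessibility (CPM) of 6 of the called regions in each library, with SMARTA cells in red and without in blue, each with the mean and SD of 3 libraries. Red points lie above all blue points in each of the 6, from 10.3 to 28.0 CPM at Rpl29 to 88.4 to 105.9 CPM at Rpl36al.

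The promoters of 4 called genes are printed for comparison, over the same span and with the same capitals as above. Rpl27 (chr11:101442135-101442284, plus strand) and Rpl22 (chr4:152325616-152325765, plus strand) have pyrimidine runs upstream of the listed start and 0 ETS cores. RefSeq has 2 start entries for Rpl22, and its sequence was placed by 1 of them. Rpl36al (chr12:69184028-69184177, minus strand) has 1 ETS core and 1 run, both downstream of the start. Rps13 (chr7:116334151-116334300, minus strand) has neither within these 150 bases.
Rpl27: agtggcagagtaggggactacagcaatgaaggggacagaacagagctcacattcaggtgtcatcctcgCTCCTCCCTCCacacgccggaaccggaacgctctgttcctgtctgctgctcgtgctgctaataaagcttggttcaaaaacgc
Rpl22: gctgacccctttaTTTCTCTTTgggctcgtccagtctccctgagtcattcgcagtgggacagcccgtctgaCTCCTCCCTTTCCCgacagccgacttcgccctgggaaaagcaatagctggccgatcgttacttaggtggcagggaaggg
Rpl36al: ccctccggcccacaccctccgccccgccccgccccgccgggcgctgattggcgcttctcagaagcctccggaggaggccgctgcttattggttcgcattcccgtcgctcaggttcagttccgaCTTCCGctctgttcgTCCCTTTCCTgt
Rps13: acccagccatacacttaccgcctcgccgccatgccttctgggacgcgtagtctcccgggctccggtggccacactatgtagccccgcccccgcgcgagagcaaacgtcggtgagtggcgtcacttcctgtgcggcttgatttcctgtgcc

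The lowest log2 fold of the family was at a secondary region of Rps15a (chr7:118104651-118105051), a small subunit gene. It read 3.87, 1.56 and 2.88 CPM with SMARTA cells, against 5.28, 4.96 and 4.34 CPM without. The groups did not overlap, but the change did not pass (log2 fold -0.79 ± 0.28 SE, edgeR adjusted p = 0.0842). Without replicate 1 with SMARTA cells the log2 fold was -1.09 and passed (edgeR adjusted p = 0.0349). The main Rps15a region had a log2 fold of 0.03 ± 0.09 SE (edgeR adjusted p = 0.883). Among main regions the lowest value was that of Rpl13 (-0.12 ± 0.12 SE, edgeR adjusted p = 0.568), with 35.9, 42.7 and 32.2 CPM with SMARTA cells, against 41.7, 36.1 and 42.3 CPM without.

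The stalk genes were not called. Rplp0, Rplp1 and Rplp2 form the stalk of the large subunit that recruits elongation factors, and Rpsa is a small subunit protein also known as a laminin receptor. Rplp0 averaged 83.9 ± 4.8 CPM with SMARTA cells and 74.6 ± 1.2 CPM without (SD, n = 3 each). The log2 fold was 0.17 ± 0.07 SE (edgeR adjusted p = 0.116). The log2 folds of Rplp1, Rplp2 and Rpsa were 0.13 ± 0.08, 0.11 ± 0.07 and 0.12 ± 0.07 SE (edgeR adjusted p = 0.315, 0.354 and 0.306). All 4 values were positive, and under loess scaling those of Rplp1, Rplp2 and Rpsa were below 0.

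Paralogs of the same protein were compared side by side. Rpl3 averaged 73.7 ± 12.2 CPM with SMARTA cells and 68.4 ± 5.4 CPM without (SD, n = 3 each). The single region near Rpl3l, its muscle paralog, lay at the far end of the gene beside Msrb1, with 40.3 ± 2.7 CPM with SMARTA cells and 39.4 ± 1.2 CPM without, and no list had a peak at the listed Rpl3l start. Rpl7 and Rpl7l1 had log2 folds of 0.21 ± 0.09 and 0.15 ± 0.10 SE (edgeR adjusted p = 0.162 and 0.379). Rpl22l1, whose product can replace that of Rpl22, had 0.21 ± 0.09 SE (edgeR adjusted p = 0.128) next to the called Rpl22. Rps27 and Rps27l, a paralog induced by p53, had 0.24 ± 0.10 and 0.06 ± 0.07 SE (edgeR adjusted p = 0.128 and 0.602), Rpl10 had 0.07 ± 0.09 SE (0.639) and Rpl39 had 0.11 ± 0.09 SE (0.445). None of these paralog pairs was tested for a difference within the pair, and Rps4l was not analysed here.

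**Figure D5:**
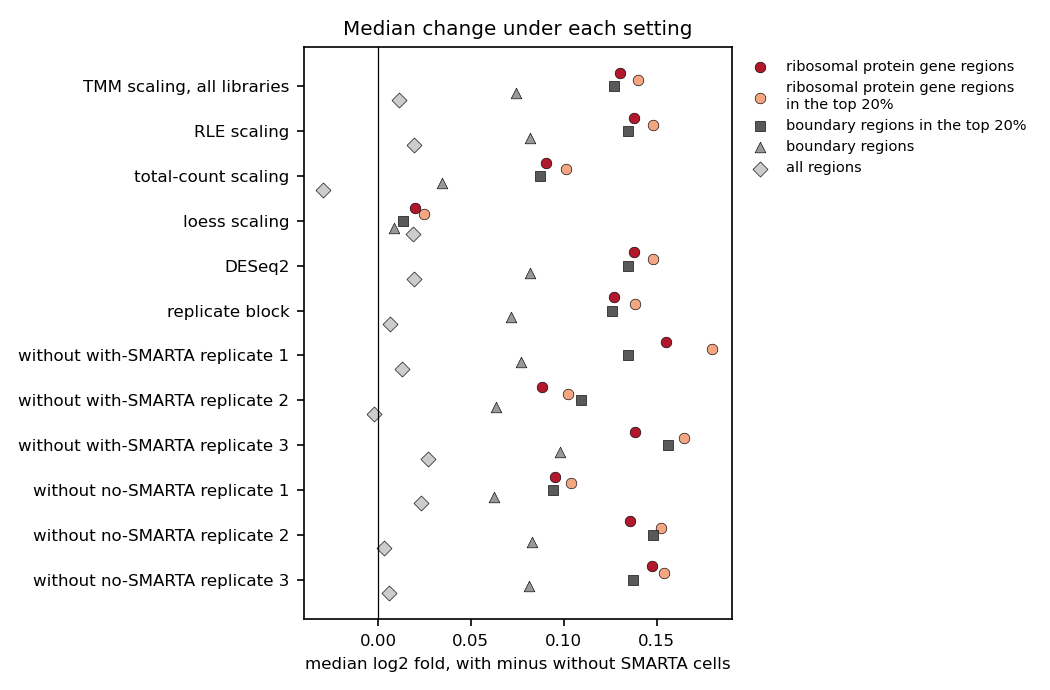
Median log2 fold (with minus without SMARTA cells) under the TMM fit and 11 alternatives, for the 124 ribosomal protein gene regions, the 88 of them in the top 20% of accessibility, all boundary regions in the top 20%, all boundary regions and all regions. The red points for the ribosomal protein genes run from 0.02 with loess scaling to 0.16 without replicate 1 with SMARTA cells. The orange points for the 88 run from 0.02 to 0.18 and the dark squares for boundary regions in the same range from 0.01 to 0.16.

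Other genes of ribosome production and translation were counted in the same way. Among all boundary regions 5.08% opened and 4.06% closed. Among boundary regions in the top 20% of accessibility the shares were 8.53% and 1.07%. With median percentiles of 84.2 to 93.5, the lists lie closer to that second background, though they were not limited to its range. Of 109 regions near mitochondrial ribosomal protein genes 7 opened and 0 closed (median log2 fold 0.10), with the smallest p at Mrpl34 (0.41 ± 0.09 SE, edgeR adjusted p = 0.013), Mrpl38 (0.37) and Mrps7 (0.29). The ribosomal proteins with other symbols, such as Fau and Rack1, had 8 regions, of which 0 opened and 0 closed (median 0.10), and the Fau region with the smallest p had 0.33 ± 0.11 SE (edgeR adjusted p = 0.0699). Of 23 regions of RNA polymerase I genes 1 opened, at Polr1d (0.26 ± 0.06 SE, edgeR adjusted p = 0.0213), and 0 closed (median 0.13); the next by p, at Taf1d and Polr1b, did not pass.

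Ribosome biogenesis genes had 78 regions, of which 1 opened, at Nop14 (0.27 ± 0.07 SE, edgeR adjusted p = 0.0199), and 1 closed, at Tsr1. The Tsr1 region, near the gene of a small subunit maturation factor (chr11:74907835-74908235), read 2.04, 1.56 and 1.46 CPM with SMARTA cells, against 5.58, 6.38 and 7.19 CPM without (log2 fold -1.92 ± 0.22 SE, edgeR adjusted p = 0.000514). The groups were far apart at a low level, and that change was larger in size than any in the ribosomal protein genes. The third by p, at Rrp9, did not pass (0.19, edgeR adjusted p = 0.0728), and the list's median was 0.12.

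Of 58 regions of initiation factors 5 opened and 1 closed (median 0.10). The closed one, at Eif4b, a helicase cofactor (chr15:102095969-102096369), read 2.29, 1.62 and 1.53 CPM with SMARTA cells, against 3.69, 6.46 and 7.98 CPM without (log2 fold -1.74 ± 0.30 SE, edgeR adjusted p = 0.00425). Eif5b (0.36, edgeR adjusted p = 0.0169) and Eif3j1 (0.25, 0.0178) opened. Of 33 regions of elongation factors and other TOP mRNA genes 1 opened, at Tpt1 (0.24, edgeR adjusted p = 0.0411), and 1 closed, the same Eif4b region (median 0.16), while Eif3f did not pass. Of 55 regions of mTORC1 and MYC regulators 7 opened and 1 closed (median 0.13), with the smallest p at Eif4ebp2 (0.33, edgeR adjusted p = 0.0136), Mxd4 (0.30) and Max (0.24). Of 32 aminoacyl-tRNA synthetase regions 2 opened, at Eprs and Nars (0.27 and 0.32), and 0 closed (median 0.12), and Cars did not pass. None of these 8 lists shares a region with the ribosomal protein genes, and no list was tested as a whole. With loess scaling the opened counts were 2 of 109 mitochondrial ribosomal protein regions, 0 of 58 initiation factor regions and 2 of 55 mTORC1 and MYC regions (medians 0.02, 0.02 and 0.03), and with DESeq2 they were 2, 1 and 3. In the lists with 1 or 2 opened regions, loess scaling gave 1 at ribosome biogenesis genes, 1 at elongation and other TOP mRNA genes and 0 in the others, and DESeq2 gave 0 in each. On leaving out replicate 3 of the libraries without SMARTA cells the opened counts were 0 of 109 mitochondrial ribosomal protein regions, 0 of 58 initiation factor regions and 1 of 55 mTORC1 and MYC regions.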

How the data were processed

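The deposited table holds whole-number read counts per region, not normalized, per the file headers and values. The authors' 6 peak lists, 1 per library, give a score, a fold enrichment (a ratio), −log10 p and q, and other values such as summit offsets. Per the submitters' processing notes, the build was GRCm38 and the tools included MACS2 2.1.1, DiffBind 3.4.11, Picard 2.18.9, SAMtools 1.8 and BWA 0.7.17. The sources used here do not give settings, duplicate removal or read shift, and leftover duplicates would inflate counts. Count columns were matched to samples through the library names of the peak lists.

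All 74686 regions were fitted in edgeR 4.0.16 (R 4.3.3; TMM, filterByExpr, which removed 0 regions, glmQLFit, glmQLFTest), with p-values adjusted over all of them; the code was tested on simulated data. The SE was derived from the fold and the F statistic. The biological coefficient of variation was 18%. No library pair agreed within sampling noise (lowest chi-square per degree of freedom 2.76). CPM are scaled counts. Intervals from counting error were not used, since replicate spread sets the precision. Alternatives were DESeq2 1.42.0, RLE, total-count and loess scaling (limma 3.58.1), filters, windows, a replicate block and leaving out each library. Genes were matched by position without strand, so exons, introns and UTRs are not given; starts and strands came from RefSeq promoter entries.

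Named are members with a called region, the 5 highest and 5 lowest main regions, members without regions, stalk genes, paralogs and the 3 regions of smallest p of each list. The 3 regions just outside the threshold, Rps15a, Rpl13, Rps18 and Rps6 were named after their values were seen. So were the secondary regions of Rpl11, Rpl22, Rpl41 and Rpl7l1. Some results that the rule would name are not reported here. The members and lists were chosen with earlier results of these data known.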

Additional observations from a re-analysis of the deposited data

How the results depend on the processing

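With 74686 regions tested in each setting, the count of opened ribosomal protein gene regions, 7 of 124, was 6 with RLE scaling, 2 with total-count scaling, 1 with loess scaling, 2 with DESeq2, 4 of the 69 regions within 2 kb of a listed start, and 1 to 7 when 1 library was left out. The count of closed ones, 0, was 2 of 183 within 5 kb of a gene and 0 to 1 when 1 library was left out. Among main regions, 5 opened, against 1 with total-count scaling, 0 with loess scaling, 0 with DESeq2, and 0 to 6 when 1 library was left out. The median log2 fold of 0.13 (0.14 for main regions) was 0.02 (0.025) with loess scaling and 0.09 to 0.16 (0.10 to 0.18) when 1 library was left out. These counts and medians changed by less than 1.5 times, or by less than the spread of the median between libraries, under the other settings. Of all boundary regions 5.08% opened with TMM scaling, 2.7% with total-count scaling, 2.26% with loess scaling and 2.85% with DESeq2. That share was 1.1% to 5.82% when 1 library was left out. Same-numbered libraries of the groups did not deviate together (correlations -0.02, -0.08 and 0.08). The labels do not say what a number stands for, and 3 libraries per group are too few to tell whether the numbers pair the libraries. With the replicate block 7 regions opened, 0 closed and the median was 0.13. Over 481 single-region values under alternatives 435 kept their side of the threshold, 43 were called only in the TMM fit of all libraries and 3 only under the alternative. These values come from 37 regions, most of them not called in the TMM fit, and the 43 are all of called regions. Of 13 alternatives the call held in 13 at Rpl29, 9 at Rpl27, 6 at Rps13, 5 at Rps14, 5 at Rpl36al and 3 at Rpl22. The 435 include the values of the fit without a filter, which could not differ, since the filter removed 0 regions. The sign turned in 25 values of 14 regions that were not called and in 0 of the called ones. The cause of these differences was not tested. Low counts, down to 23 in a member region, limit the secondary regions most, where the SE of the log2 fold had a median of 0.19, against 0.09 for main regions.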
